A study of Mus musculus with 19 samples.

Results

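The 52 genes described here make, transmit or break down the second messengers cAMP and cGMP in the mouse aorta. They were chosen by symbol: the adenylyl cyclases (Adcy), the guanylyl cyclase genes (Gucy1 and Gucy2), the natriuretic peptide receptors (Npr1 to Npr3), the phosphodiesterases of the families Pde1 to Pde11, and the subunits of the cAMP-dependent kinase (Prkac, Prkar) and the cGMP-dependent kinase (Prkg). Of 54 RefSeq genes that fit these symbols, 52 had a probe set carrying a single gene symbol, out of 30063 genes measured in this way. The probe sets of Gucy1a1 and Pde4d carry several symbols and were not analysed here. By nucleotide, 23 of the genes were assigned to cAMP alone, 21 to cGMP alone, and 8 are phosphodiesterases that split both nucleotides. The cGMP and phosphodiesterase counts take in every measured Pde6 gene by its symbol, Pde6d, Pde6g and Pde6h among them. Whether the product of each itself splits cGMP was not considered.

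In an artery wall, adenylyl cyclases make cAMP when a receptor coupled to the stimulatory G protein is occupied, soluble guanylyl cyclase makes cGMP when it binds nitric oxide, and the membrane receptors Npr1 and Npr2 make cGMP when they bind natriuretic peptides. Both messengers act largely through their kinases, protein kinase A and protein kinase G, which relax smooth muscle by lowering its calcium and its sensitivity to calcium. Phosphodiesterases end the signal, and their families differ in which nucleotide they split and in how they are regulated.

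The study infused the infrarenal aorta of C57BL/6J mice at 10 weeks of age with elastase, which weakens the wall and lets it widen into an aneurysm. The male PPE group (7 mice) and the female PPE group (4 mice) received porcine pancreatic elastase at 2.5 U/mL in saline for 5 min at 120 mmHg. The male sham group (5 mice) and the female sham group (3 mice) had the same clamping, incision and infusion with saline alone, so the values compare elastase with surgery and not with an untouched aorta. Each of the 19 arrays held the RNA of the whole infrarenal segment of 1 mouse, taken 7 days after surgery, and the labels give no cell sorting.

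Values are log2 intensities, so a difference of 1 is a doubling of the signal. Median intensity was 5.61 to 5.85 on male arrays and 6.17 to 6.31 on female arrays over all probe sets, so levels are never compared between the sexes, only the responses to elastase. The mean of the smooth muscle markers was at least 10.64 on every array, that of the endothelial markers at least 10.45 and that of the fibroblast markers at least 14.15. The lowest value of any of the 66 cell type markers on any array was 4.45, below all array medians. Male sham replicate 4 stood apart by its adipocyte markers, whose mean was 12.66 there, against 7.90 to 8.88 on the other male sham arrays. The mean of 5 skeletal muscle markers was 10.99 on female sham replicate 1, against 6.08 and 6.14 on the other female sham arrays. It was 9.56 on female PPE replicate 2, against 5.96 to 6.00 on the others of that group. On male PPE replicate 6 it was 7.76, against 5.36 to 5.82. Nerve and Schwann cell markers had a mean of 8.81 on female PPE replicate 2, against 6.11 to 7.06. The part of such tissue in the results was not tested. For some of the genes described singly, the male value without male sham replicate 4 is given as well.

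In male PPE aortae 9 of the 20 cyclase genes and 3 of the 8 kinase subunit genes fell and none of either rose, and 4 of the cyclase genes also fell in female PPE aortae. In males 20 of the 52 genes passed the test (limma, Benjamini-Hochberg adjusted p below 0.05 over all 30063 genes), 16 lower and 4 higher in PPE. Over all genes 19.7% passed in males, 9.97% lower and 9.69% higher. In females 6 of the 52 passed, 5 lower and 1 higher, where 4.25% of all genes passed, 1.46% lower and 2.79% higher. At an unadjusted p below 0.05, 24 of the genes passed in males and 14 in females. The scaling of the arrays moved the split of all genes. Called genes in males numbered 3386 higher and 2222 lower after median centring, beside 2914 and 2997 as deposited, and in females 672 higher and 854 lower after quantile normalization, beside 839 and 438. Of the 52 genes, median centring left 4 higher and 14 lower in males, without Npr3 and Prkar2a, and 0 higher and 4 lower in females, without Pde5a and Pde7a. Quantile normalization left 3 higher and 15 lower in males, without Npr3 and Pde2a, and 0 higher and 7 lower in females, without Pde7a and with Gucy1a2 and Prkar2a added. All 6 genes that passed in females also passed in males in the same direction, and all 20 that passed in males had the same sign in females. All male PPE arrays lay below all male sham arrays for 11 of the 52 genes (4.67% of all genes) and above them for 0 (4.7% of all genes). All female PPE arrays lay below all female sham arrays for 9 (8.86% of all genes) and above them for 3 (11.0% of all genes). The count of called genes in females was 3 without female PPE replicate 1, female PPE replicate 3 or female sham replicate 1, and 1 without female sham replicate 2.

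The cAMP and cGMP arms are set side by side here by their counts, and no test compared them. Of the 21 cGMP genes, 7 fell and none rose in male PPE aortae, and 4 fell and none rose in female PPE aortae. Of the 23 cAMP genes, 8 fell and 2 rose in males, and 1 fell and 1 rose in females. Of the 8 phosphodiesterases of both nucleotides, 1 fell and 2 rose in males and none passed in females, where 2 passed at an unadjusted p below 0.05. The median log2 difference in males was -0.03 for the cGMP genes and -0.15 for the cAMP genes, beside 0.01 for all genes. Median centring turned the sign of the cGMP median in males, to 0.02. These medians take in the dim genes: among genes above the array median on at least 3 arrays the male median was -0.74 for the cGMP genes and -0.24 for the cAMP genes, the reverse order. In females the median with dim genes included was -0.10 for the cGMP genes and -0.07 for the cAMP genes, beside -0.02 for all genes. Among the genes above the array median on at least 3 arrays it was -0.50 and -0.10. Of the 23 phosphodiesterase genes, 3 were called lower and 4 higher in males, and 1 lower and 1 higher in females. Of the 4 higher in males, 1 passed with the male arrays alone and 0 with the replicate number as a block. The counts in this paragraph are to be read against the shares over all genes. These were 9.97% lower and 9.69% higher in males, and 1.46% lower and 2.79% higher in females.

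**Figure D1:**
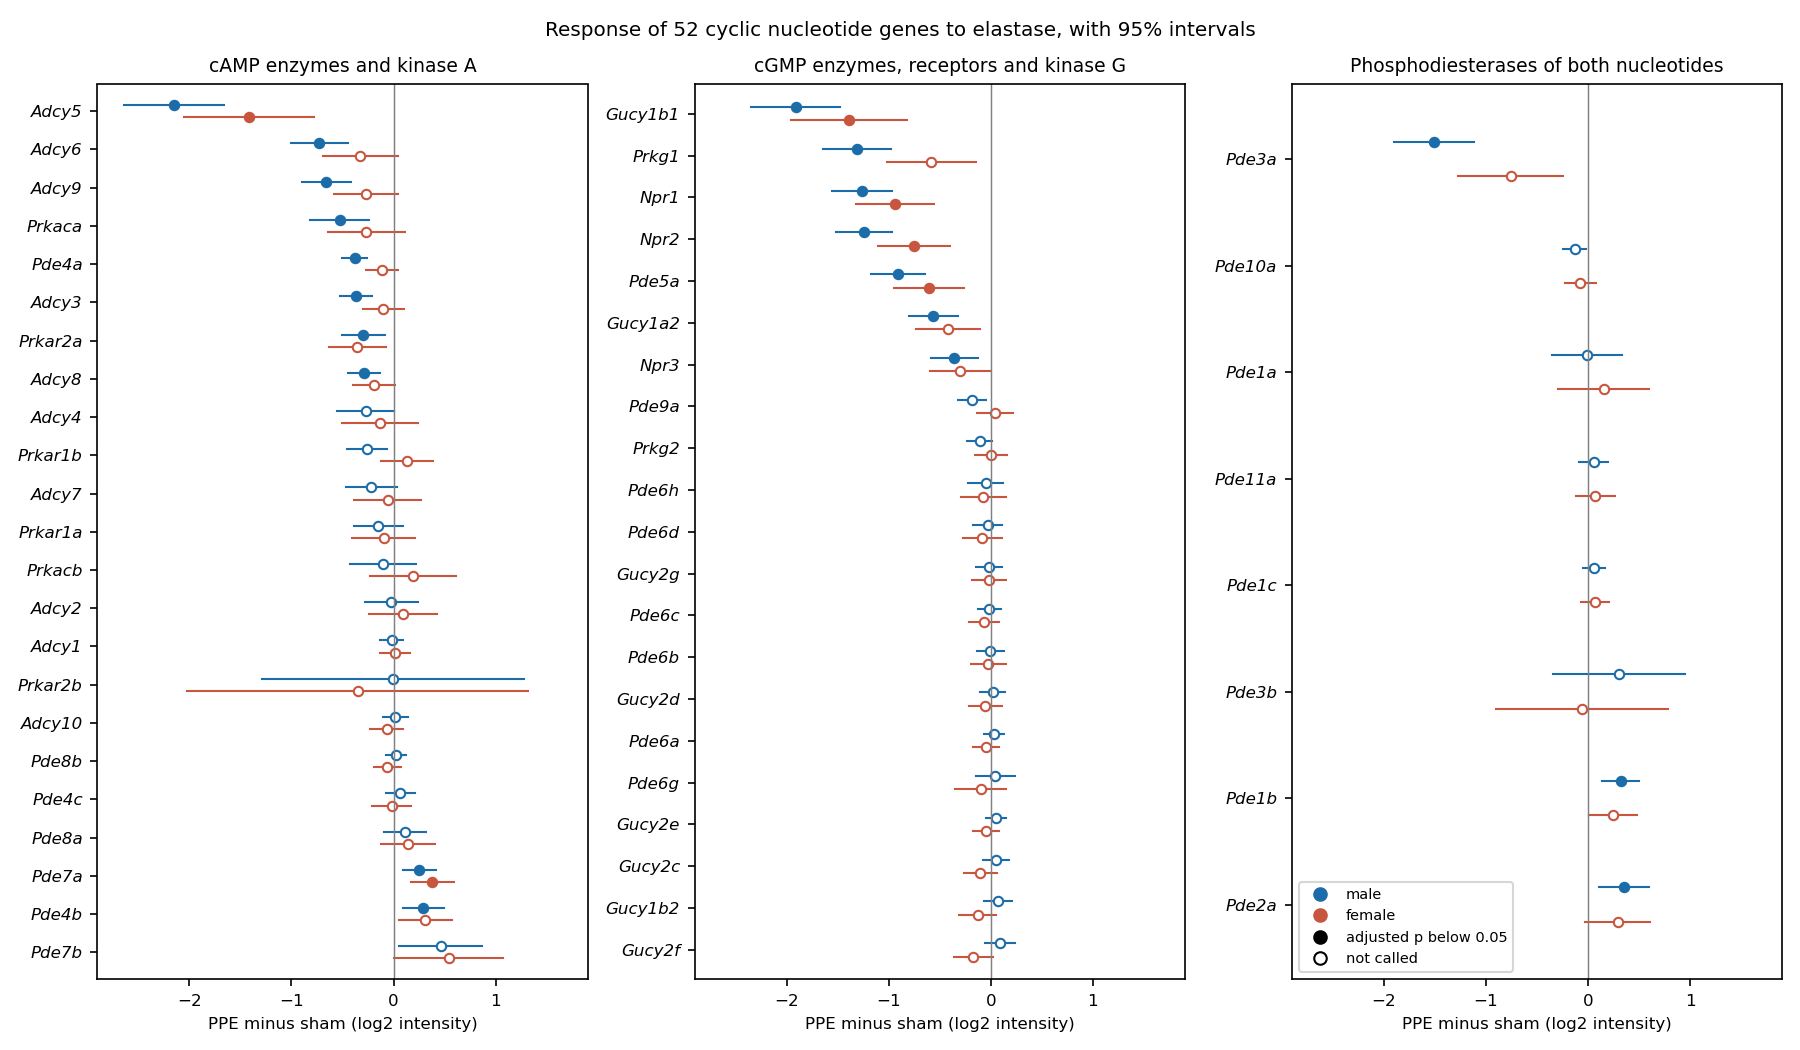
PPE minus sham difference (log2 intensity) of each of the 52 genes in males (blue) and females (red), with 95% intervals, sorted within cAMP genes, cGMP genes and phosphodiesterases of both nucleotides. Filled points have an adjusted p below 0.05; the filled points lie mostly left of 0, led by Adcy5 (-2.15 in males) and Gucy1b1 (-1.91 in males).

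Markers of the cells of the wall moved along with these genes. All 8 smooth muscle markers fell in males (median log2 difference -1.91) and 6 of 8 in females (-1.26). Their mean level ranged from 10.64 to 11.68 in male PPE aortae and from 12.30 to 13.43 in male sham aortae, and from 11.47 to 12.14 in female PPE aortae and from 12.84 to 13.14 in female sham aortae, without overlap in either sex. Pericyte markers fell in 5 of 6 cases in males (median -1.22) and 4 of 6 in females (-0.88), fibroblast markers in 4 of 5 in males (-0.74) and 2 of 5 in females (-0.73), and endothelial markers in 4 of 6 in males (-0.49) and 0 of 6 in females (-0.13). For T and NK cells, 7 of 7 markers were higher in each sex (2.08 in males, 1.52 in females). Neutrophil markers rose in 5 of 6 in males (2.26) and 4 of 6 in females (1.89), and monocyte and macrophage markers in 7 of 8 in males (1.54) and 1 of 8 in females (0.70). Of 3 B cell markers, 0 passed in males (-0.19) and 2 were higher in females (1.14). In whole aortae, fewer cells of a type and less RNA per cell cannot be told apart. With the mean of the smooth muscle markers as a covariate, a fit added after the data had been seen, none of the 52 genes passed in either sex, and only 4 of all genes in males and 0 in females did. At an unadjusted p below 0.05 in that limma fit, 2606 of all genes passed in males and 2779 in females. The male differences in that fit were -0.75 ± 0.30 for Npr2, -0.48 ± 0.29 for Gucy1a2, 0.31 ± 0.30 for Pde2a and 0.21 ± 0.20 for Pde7a, and -0.30 ± 0.32 for Adcy5 and -0.38 ± 0.33 for Gucy1b1. Since that mean separates PPE from sham arrays completely, smooth muscle content and elastase cannot be told apart in these samples. The part of the pericyte, fibroblast, endothelial and immune markers in these results was not tested.

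**Figure D2:**
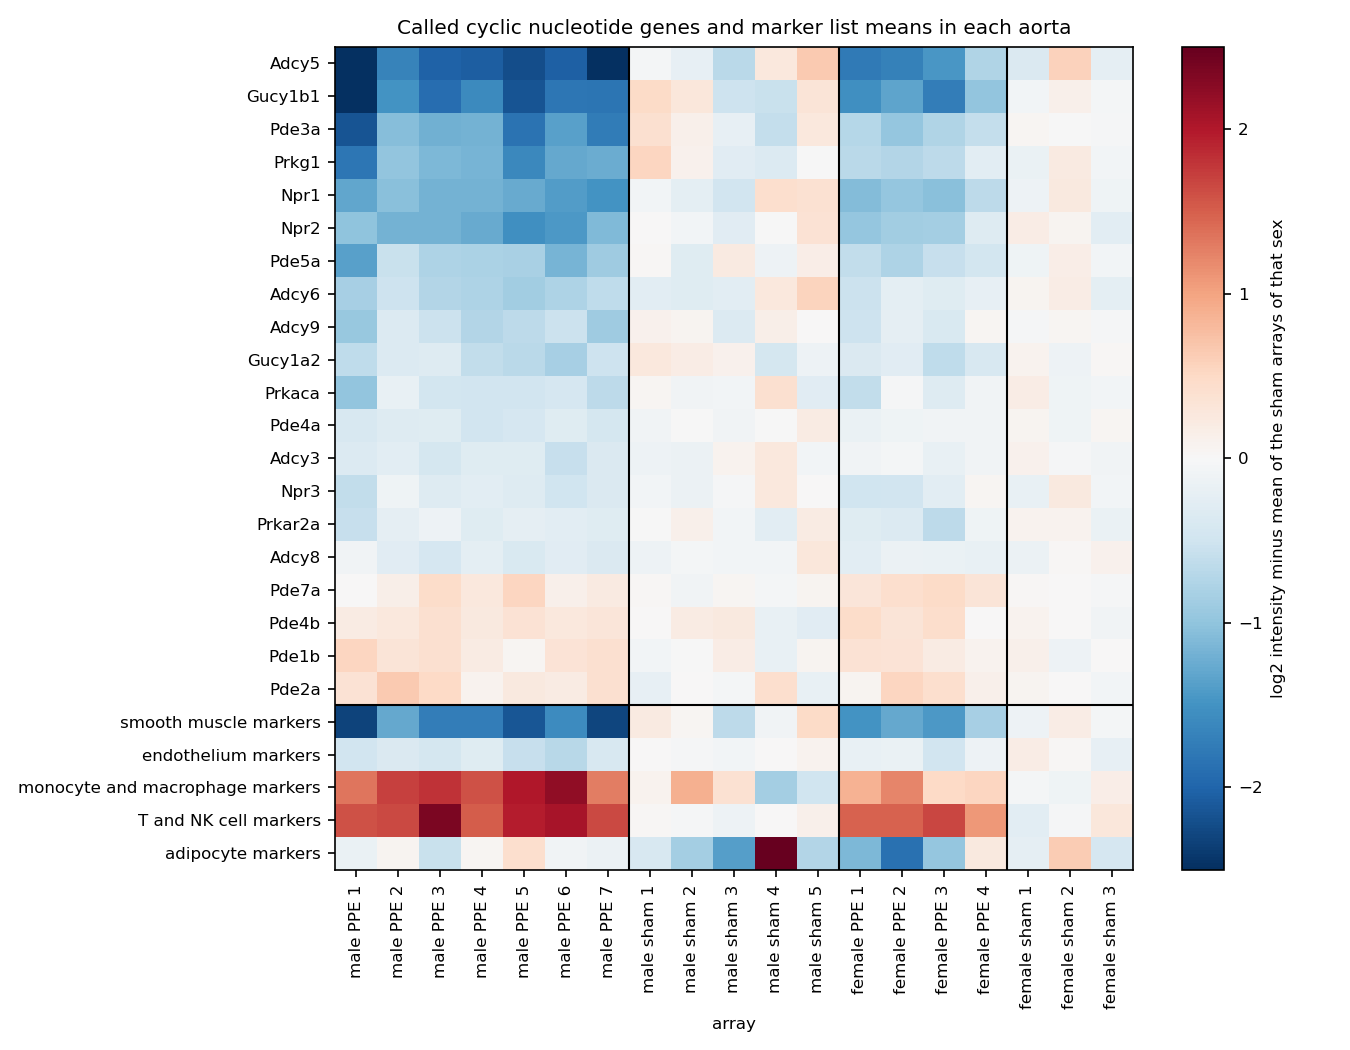
Log2 intensity of the 20 genes called in males and of 5 marker list means on each of the 19 arrays, minus the mean of the sham arrays of the same sex (blue lower, red higher; colours end at 2.5 in either direction). The rows of Adcy5, Gucy1b1, Pde3a and Prkg1 are blue on all male PPE arrays, as is the row of smooth muscle markers, and the adipocyte row is red on male sham replicate 4.

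In both sexes 5 genes were called lower in PPE aortae, Adcy5, Gucy1b1, Npr1, Npr2 and Pde5a, and Pde7a was called higher in both. On GRCm38.p6, which is mm10, Adcy5 lies at chr16:35154494-35305743, Gucy1b1 at chr3:82032004-82074711, Npr1 at chr3:90450591-90465928, Npr2 at chr4:43629015-43651437, Pde5a at chr3:122729158-122859374 and Pde7a at chr3:19223108-19311322. The promoters printed here, 250 bases before to 50 after a RefSeq start site, belong to the synthesis gene with the largest difference in each arm and to the main cGMP-splitting enzyme of smooth muscle. Capitals mark matches to the E box (CANNTG) and to the core of the cAMP response element (TGACG, or CGTCA on the other strand), and the rest is in lower case.
Gucy1b1, chr3:82074662-82074961, minus strand: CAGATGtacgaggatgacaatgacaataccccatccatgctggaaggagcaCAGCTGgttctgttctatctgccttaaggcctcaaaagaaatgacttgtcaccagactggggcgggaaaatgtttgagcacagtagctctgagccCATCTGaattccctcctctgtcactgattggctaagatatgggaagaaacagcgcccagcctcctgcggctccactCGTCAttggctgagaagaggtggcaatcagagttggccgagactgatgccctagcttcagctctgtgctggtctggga
Adcy5, chr16:35154614-35154913, plus strand: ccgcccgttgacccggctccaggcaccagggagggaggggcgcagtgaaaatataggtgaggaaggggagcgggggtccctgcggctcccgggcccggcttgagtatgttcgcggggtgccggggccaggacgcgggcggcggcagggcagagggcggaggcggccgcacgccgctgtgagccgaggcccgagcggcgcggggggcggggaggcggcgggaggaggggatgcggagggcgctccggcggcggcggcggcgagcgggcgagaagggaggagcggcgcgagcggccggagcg
Pde5a, chr3:122728908-122729207, plus strand: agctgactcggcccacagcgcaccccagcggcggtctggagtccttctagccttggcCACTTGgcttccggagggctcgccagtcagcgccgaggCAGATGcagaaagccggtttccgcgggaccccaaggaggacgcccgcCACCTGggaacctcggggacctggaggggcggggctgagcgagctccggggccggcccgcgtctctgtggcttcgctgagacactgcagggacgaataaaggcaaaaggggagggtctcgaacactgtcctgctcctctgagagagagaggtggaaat

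The Gucy1b1 window holds 1 core motif starting 28 bases before the start and 3 E boxes starting 250, 199 and 104 bases before it. The Pde5a window holds 3 E boxes starting 193, 155 and 108 bases before the start, and the Adcy5 window, with 79.0% G and C, holds neither motif. The window of Npr2 (chr4:43631685-43631984, plus strand) holds 1 E box and that of Npr1 (chr3:90465817-90466116, minus strand) holds none. The Adcy5 and Npr2 windows lie wholly within the gene spans given above, so they hold no sequence upstream of those spans. Both strands were searched, and a full cAMP response element, TGAC followed by GTCA, contains the core motif and was counted under both. Among 32851 RefSeq promoter windows of the same 300 bases, 72.3% hold an E box, 20.8% the core motif, 1.79% the full element and 1.63% a CArG box. Of the 80 windows of the 41 genes with an entry, 60 hold an E box, 20 the core motif, 2 the full element (both of Prkar1a) and 0 a CArG box.

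Soluble guanylyl cyclase, the nitric oxide receptor, is a dimer of an alpha and a beta subunit, and Gucy1b1 encodes the beta subunit that carries the haem. Gucy1b1 had a lowest, median and highest intensity of 8.75, 9.51 and 9.84 in male PPE aortae, against 11.81, 11.62, 10.81, 10.77 and 11.66 in male sham aortae. In females it had 10.59, 10.80, 10.40 and 11.14 in PPE aortae, against 12.05, 12.25 and 12.07 in sham aortae. All PPE values lay below all sham values in each sex. The log2 difference was -1.91 ± 0.21 (SE) in males, 3.76-fold lower (adjusted p = 4.268e-06), and -1.39 ± 0.27 in females, 2.62-fold lower (adjusted p = 0.007482). The call held in both sexes without any 1 of the 19 arrays, with a largest adjusted p of 0.04908 in females. With the replicate number as a block the female call was lost (-1.53, adjusted p = 0.06139).

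Gucy1a2, which encodes an alternative alpha subunit, had 7.35, 7.57 and 7.85 (lowest, median, highest) in male PPE aortae, against 8.44, 8.37, 8.28, 7.75 and 8.06 in male sham aortae. Male sham replicate 4 was the one sham array within the PPE range. Gucy1a2 fell by 0.56 ± 0.11 in males (adjusted p = 0.001551), and its difference without that array was -0.67 ± 0.10 with no overlap (adjusted p = 0.000142). In females it had 8.39, 8.46, 8.10 and 8.34 in PPE aortae, against 8.84, 8.61 and 8.78 in sham aortae, without overlap, and the difference of -0.42 ± 0.15 did not pass (adjusted p = 0.1429). The third measured subunit gene, Gucy1b2, was dim on the arrays and had log2 differences of 0.07 in males and -0.13 in females.

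Npr1 encodes the receptor cyclase for atrial and brain natriuretic peptides, Npr2 the one for C-type natriuretic peptide, and Npr3 a receptor without a cyclase that clears these peptides. Npr1 had 7.84, 8.08 and 8.30 (lowest, median, highest) in male PPE aortae, against 9.26, 9.10, 8.86, 9.75 and 9.72 in male sham aortae. In females Npr1 had 8.62, 8.74, 8.66 and 9.05 in PPE aortae, against 9.57, 9.94 and 9.60 in sham aortae. No PPE value reached the sham range in either sex, and the log2 difference was -1.26 ± 0.14 in males (adjusted p = 5.117e-06) and -0.94 ± 0.18 in females (adjusted p = 0.007598). Npr2 had 8.46, 8.81 and 8.99 in male PPE aortae, against 10.00, 9.92, 9.71, 9.98 and 10.35 in male sham aortae. Npr2 in females had 9.49, 9.60, 9.61 and 10.14 in PPE aortae, against 10.65, 10.53 and 10.20 in sham aortae, again without overlap, although the highest PPE array came close to the lowest sham array. The log2 difference of Npr2 was -1.24 ± 0.13 in males (adjusted p = 2.912e-06) and -0.75 ± 0.17 in females (adjusted p = 0.0154).

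Npr3 changed least of the 3 receptors in males. It had 6.47, 6.75 and 6.96 (lowest, median, highest) in male PPE aortae, against 7.00, 6.92, 7.05, 7.33 and 7.08 in male sham aortae, with the ranges touching at 1 sham array. The log2 difference was -0.36 ± 0.11 in males (adjusted p = 0.02611), and -0.29 without male sham replicate 4 (adjusted p = 0.08054) or -0.33 without male PPE replicate 6 (adjusted p = 0.05276). In females it was -0.30 ± 0.14 (adjusted p = 0.333). In the same sense the female call of Npr1 was lost without female sham replicate 2 (-0.82, adjusted p = 0.05921). That of Npr2 was lost without female PPE replicates 1 or 3 or female sham replicates 1 or 2, with differences of -0.72 to -0.66 and adjusted p from 0.05182 to 0.09492.

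Prkg1 encodes the cGMP-dependent kinase of smooth muscle. It had 8.13, 8.70 and 8.96 (lowest, median, highest) in male PPE aortae, against 10.48, 10.05, 9.66, 9.60 and 9.93 in male sham aortae. Female Prkg1 values were 9.27, 9.21, 9.28 and 9.67 in PPE aortae, against 9.77, 10.17 and 9.88 in sham aortae. The groups did not overlap in either sex. Prkg1 fell by 1.31 ± 0.16 in males (adjusted p = 1.095e-05), and its difference in females of -0.58 ± 0.21 did not pass (adjusted p = 0.1429). Prkg2, the gene of the second cGMP-dependent kinase, which is best known from intestine and bone, had differences of -0.11 in males and 0.00 in females.

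Pde5a encodes the cGMP-specific phosphodiesterase that sildenafil inhibits. It had 10.18, 10.73 and 10.98 (lowest, median, highest) in male PPE aortae, against 11.58, 11.24, 11.78, 11.41 and 11.72 in male sham aortae. Female Pde5a values were 11.18, 11.01, 11.22 and 11.33 in PPE aortae, against 11.69, 11.95 and 11.73 in sham aortae. All PPE arrays were below all sham arrays in each sex. The log2 difference was -0.91 ± 0.12 in males (adjusted p = 3.526e-05) and -0.61 ± 0.16 in females (adjusted p = 0.04033). The female call was lost without any 1 of the 3 female sham arrays, without female PPE replicates 1, 2 or 3, and without male PPE replicate 7 or male sham replicate 1, with differences of -0.66 to -0.53 and adjusted p from 0.05025 to 0.2034.

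Pde3a, whose enzyme splits cAMP and is held back by cGMP, stood between the arms and had the largest difference of any phosphodiesterase. It had 9.82, 10.62 and 10.92 (lowest, median, highest) in male PPE aortae, against 12.39, 12.11, 11.78, 11.38 and 12.24 in male sham aortae. Female Pde3a values were 11.50, 11.25, 11.46 and 11.63 in PPE aortae, against 12.26, 12.21 and 12.18 in sham aortae. Both sexes were free of overlap. Pde3a fell by 1.51 ± 0.19 in males, 2.84-fold (adjusted p = 1.434e-05). In the fit of all arrays the female difference of -0.76 ± 0.24 did not pass (adjusted p = 0.1007). That difference passed with the female arrays alone, at -0.76 ± 0.09 (adjusted p = 0.00696). It also passed with arrays weighted by their fit to the group means (-0.73, adjusted p = 0.006269) and without the 3 arrays of lowest weight (-0.76, adjusted p = 0.0183). Under no other setting tried did it pass, and with the replicate number as a block it was -0.81 (adjusted p = 0.345).

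**Figure D3:**
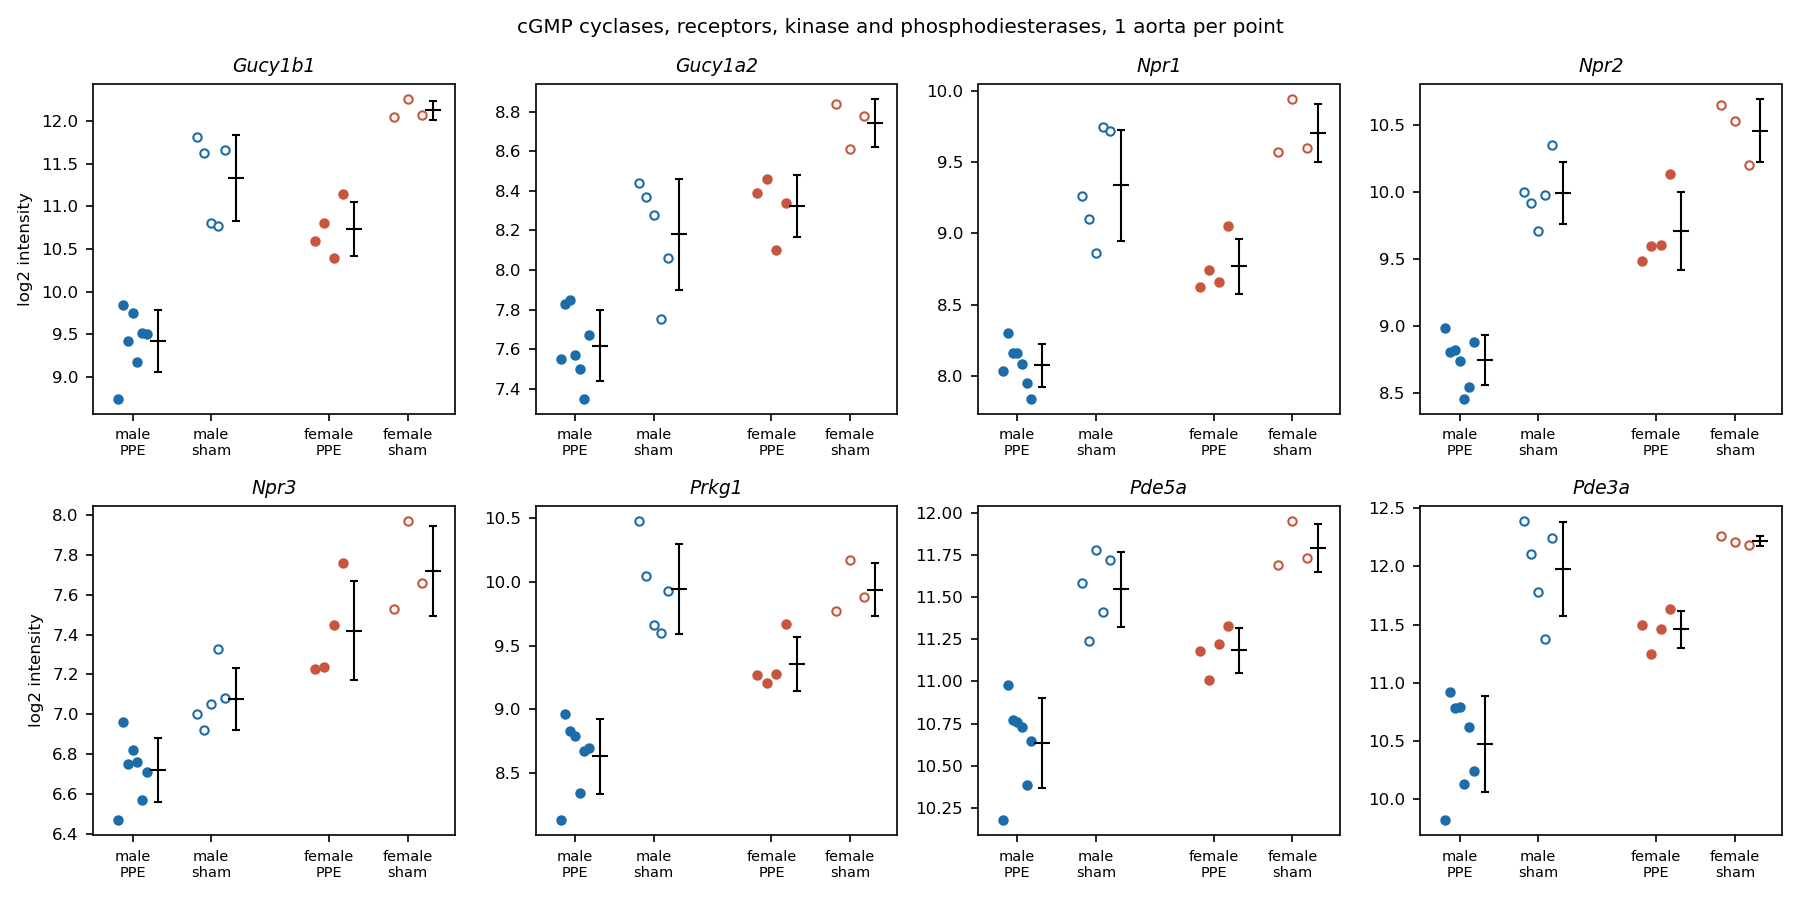
Log2 intensity of 8 genes of cGMP synthesis, action and breakdown, 1 point per aorta, in male PPE (7), male sham (5), female PPE (4) and female sham (3) arrays, with the mean and SD beside each group. PPE points lie below sham points in both sexes in every panel except Npr3 and, in males, Gucy1a2, where the groups overlap.

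Adcy5, a cyclase well known from heart and striatum, had the largest difference of the 52 genes in males with all arrays weighted equally. It had 7.85, 8.35 and 8.74 (lowest, median, highest) in male PPE aortae, against 10.35, 10.21, 9.74, 10.66 and 11.07 in male sham aortae. In females it had 8.52, 8.59, 8.83 and 9.53 in PPE aortae, against 9.93, 10.86 and 10.07 in sham aortae. PPE and sham arrays were apart in each sex. The log2 difference was -2.15 ± 0.23 in males, 4.45-fold lower (adjusted p = 4.08e-06), and -1.42 ± 0.30 in females, 2.67-fold lower (adjusted p = 0.01171). Without female sham replicate 2 the female difference was -1.13 (adjusted p = 0.0946). The female difference of Adcy5 was within its error of that of Gucy1b1.

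Of the 10 adenylyl cyclase genes, 5 fell in males and only Adcy5 passed in females. Adcy6, the other cyclase that calcium inhibits, had 8.53, 8.63 and 8.88 (lowest, median, highest) in male PPE aortae, against 9.14, 9.10, 9.13, 9.65 and 9.96 in male sham aortae, without overlap. It fell by 0.73 ± 0.13 in males (adjusted p = 0.0006296). Female PPE aortae had 9.14, 9.42, 9.37 and 9.46, against 9.75, 9.85 and 9.42 in sham aortae, and the difference of -0.33 ± 0.17 did not pass (adjusted p = 0.4305). Adcy9 had 6.60, 6.89 and 7.21 in male PPE aortae, against 7.65, 7.62, 7.20, 7.69 and 7.56 in male sham aortae, where male sham replicate 3 alone was within the PPE range. It fell by 0.66 ± 0.11 in males (adjusted p = 0.0003751), beside -0.27 ± 0.15 in females (adjusted p = 0.4589). Adcy3 had 7.46, 7.69 and 7.77 in male PPE aortae, against 7.91, 7.89, 8.12, 8.29 and 7.96 in male sham aortae, without overlap, and fell by 0.37 ± 0.07 (adjusted p = 0.001461). In females its difference was -0.10 ± 0.10.

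Adcy8, the calcium-stimulated cyclase known mainly from brain, was dim, at 4.47, 4.61 and 4.80 (lowest, median, highest) in male PPE aortae and 4.77, 4.85, 4.83, 4.83 and 5.17 in male sham aortae. It lay above the array median on fewer than 3 arrays, and its difference of -0.29 ± 0.07 (adjusted p = 0.008139) is one of signals near the bottom of the scale. Adcy7, a cyclase known from blood cells, and Adcy4 were well above the array median and did not pass in either sex: Adcy7 differed by -0.22 ± 0.12 in males and -0.06 ± 0.16 in females, and Adcy4 by -0.28 ± 0.13 in males and -0.13 ± 0.18 in females.

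Among the cAMP-dependent kinase genes, the main catalytic subunit gene Prkaca had 9.80, 10.32 and 10.61 (lowest, median, highest) in male PPE aortae, against 10.85, 10.70, 10.72, 11.20 and 10.51 in male sham aortae. Only the top PPE array entered the sham range. Prkaca fell by 0.53 ± 0.14 in males (adjusted p = 0.009954), beside -0.27 ± 0.18 in females (adjusted p = 0.5867). The second catalytic gene, Prkacb, had differences of -0.10 ± 0.15 in males, -0.20 without male sham replicate 4 (adjusted p = 0.449), and 0.19 ± 0.20 in females. The regulatory gene Prkar2a had 9.13, 9.44 and 9.58 in male PPE aortae, against 9.71, 9.83, 9.65, 9.45 and 9.92 in male sham aortae, and its difference of -0.29 ± 0.10 was close to the threshold (adjusted p = 0.0466). Without male sham replicate 4 the difference was -0.36 ± 0.10 with no overlap (adjusted p = 0.01734). The call held in only 5 of the 19 fits that left out 1 array. It was lost without male PPE replicates 1, 2, 4, 5, 6 or 7, male sham replicates 1, 2, 3 or 5, female PPE replicates 1 or 2, or female sham replicates 1 or 2, with adjusted p from 0.05413 to 0.133. In females Prkar2a differed by -0.36 ± 0.13 (adjusted p = 0.1641). Prkar1a, the regulatory subunit gene used most widely across tissues, differed by -0.15 ± 0.11 in males (adjusted p = 0.4351) and -0.10 ± 0.15 in females. In males Prkar1a was at -0.25 without male sham replicate 4 (adjusted p = 0.1047), and it passed at -0.30 with array weights (adjusted p = 0.009443) and at -0.35 without male sham replicates 4 and 5 and male PPE replicate 1 (adjusted p = 0.0008782).

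Prkar2b, the regulatory subunit gene that fat and brain use most, depended on 1 array. It had 9.35, 9.79 and 10.14 (lowest, median, highest) in male PPE aortae, against 9.37, 8.72, 8.73, 13.30 and 8.64 in male sham aortae, the 13.30 being replicate 4. With all arrays its difference in males was -0.01 ± 0.61 (adjusted p = 0.9961), and without male sham replicate 4 it was 0.88 ± 0.28 (adjusted p = 0.03825). Pde3b, the phosphodiesterase gene that insulin controls in fat, had 11.94 on that array, against 9.67 to 10.57 on the other male sham arrays and 10.26 to 11.31 on male PPE arrays. Its difference in males was 0.30 ± 0.31 with all arrays and 0.66 ± 0.23 without that one (adjusted p = 0.05609). In females, PPE aortae had 10.65, 9.97, 10.76 and 12.03 for Prkar2b, against 11.06, 11.62 and 10.93 in sham aortae, so that 3 PPE values lay below all sham values and replicate 4, at 12.03, above them. Without that array the female difference was -0.74 ± 0.83 (adjusted p = 0.8282). Prkar1b passed in males without male sham replicate 4, at -0.31 ± 0.10 (adjusted p = 0.03513), beside -0.26 ± 0.09 with all arrays (adjusted p = 0.0626). The mean of the 8 adipocyte markers ranged from 8.72 to 9.71 in male PPE aortae and from 7.90 to 12.66 in male sham aortae, and from 9.49 to 11.59 in female PPE aortae and from 10.93 to 11.98 in female sham aortae. None of the 8 passed in either sex. With that mean as a covariate Prkar2b differed by 0.06 ± 0.12 in males (adjusted p = 0.8157) and by 0.58 ± 0.16 in females, which passed (adjusted p = 0.04757), beside -0.35 ± 0.79 without the covariate (adjusted p = 0.916). Pde3b differed by 0.33 ± 0.18 in males and 0.34 ± 0.24 in females in that fit and passed in neither (adjusted p = 0.2205 and 0.6062). Of the 52 genes, 22 passed in males with the covariate and 6 in females, the female calls without Pde5a and Pde7a and with Gucy1a2 and Prkar2b.

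**Figure D4:**
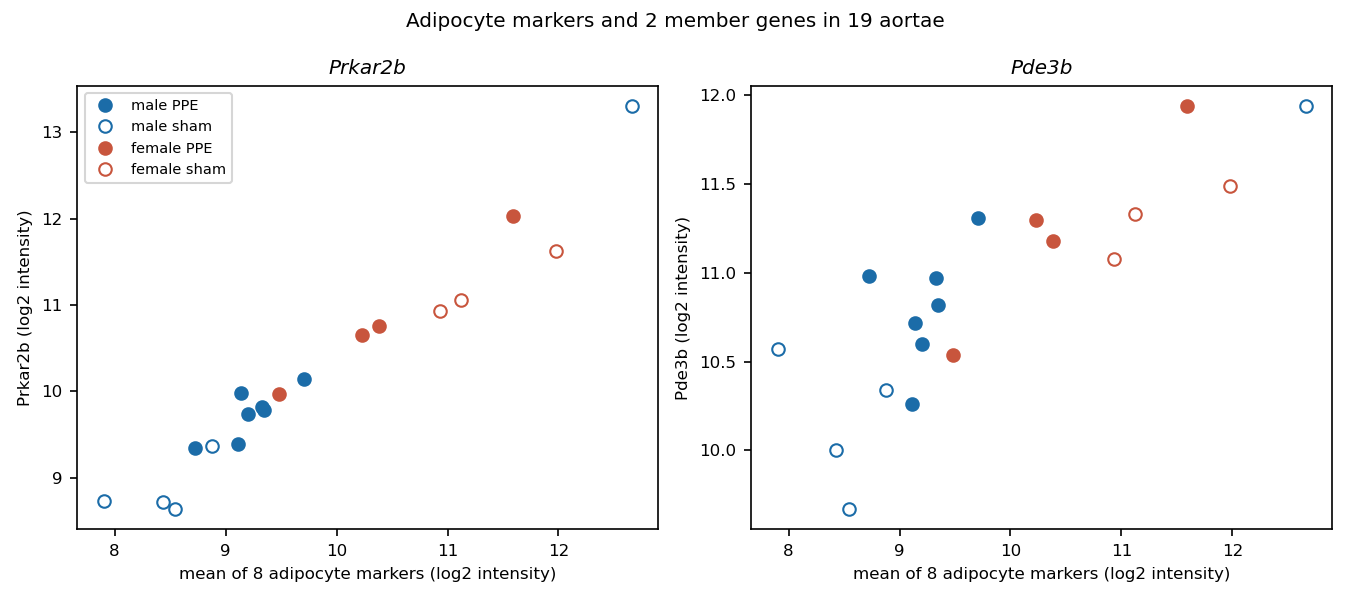
Log2 intensity of Prkar2b (left) and Pde3b (right) against the mean log2 intensity of 8 adipocyte markers on the same array, 1 point per aorta, coloured by sex and filled for PPE. Male sham replicate 4 is the open blue point at the upper right of each panel, at 13.30 for Prkar2b and 11.94 for Pde3b.

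The cAMP-specific phosphodiesterases did not move together. Pde7a, which is abundant in lymphocytes, was the one gene called higher in both sexes. Pde7b, Pde4b, Pde1b and Pde2a also had positive differences in both sexes, given below, but did not pass in both. Pde7a had 8.57, 8.80 and 9.10 (lowest, median, highest) in male PPE aortae, against 8.59, 8.48, 8.62, 8.52 and 8.63 in male sham aortae, with overlap. Female Pde7a values were 9.36, 9.48, 9.54 and 9.37 in PPE aortae, against 9.08, 9.06 and 9.03 in sham aortae, without overlap. The log2 difference was 0.25 ± 0.08 in males (adjusted p = 0.02806) and 0.38 ± 0.10 in females (adjusted p = 0.04142). The male call was lost without male PPE replicates 3 or 5 or male sham replicates 2 or 4 (adjusted p from 0.0527 to 0.07119). The female call was lost without female PPE replicates 1, 2 or 3, any 1 of the 3 female sham arrays, male PPE replicates 4 or 7, or male sham replicate 1 (adjusted p from 0.0516 to 0.1366).

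Pde4b, the PDE4 gene known for its induction in inflammatory cells, rose in males. It had 7.47, 7.54 and 7.67 (lowest, median, highest) in male PPE aortae, against 7.29, 7.48, 7.52, 7.08 and 7.00 in male sham aortae, and differed by 0.29 ± 0.09 (adjusted p = 0.03674). Without male sham replicate 5 the difference was 0.22 (adjusted p = 0.1181), and the call was also lost without male sham replicates 1 or 4 or male PPE replicates 2, 3, 5, 6 or 7 (adjusted p from 0.05031 to 0.1037). Without male sham replicates 4 and 5 and male PPE replicate 1 together it was 0.15 (adjusted p = 0.2916). In females Pde4b had 7.78, 7.64, 7.76 and 7.32 in PPE aortae, against 7.40, 7.32 and 7.23 in sham aortae, a difference of 0.31 ± 0.12 (adjusted p = 0.2152). Pde4a, another gene of the same family, fell in males: it had 7.04, 7.12 and 7.22 in PPE aortae, against 7.43, 7.51, 7.44, 7.51 and 7.72 in sham aortae, without overlap, a difference of -0.38 ± 0.06 (adjusted p = 0.0001067). In females the Pde4a difference was -0.12 ± 0.08 (adjusted p = 0.5742). Pde7b differed by 0.46 ± 0.19 in males and 0.54 ± 0.25 in females, and passed in neither (adjusted p = 0.1104 and 0.3286), although all female PPE arrays lay above all female sham arrays.

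Of the phosphodiesterases of both nucleotides, Pde1b, a calcium and calmodulin stimulated enzyme, and Pde2a, which cGMP stimulates, rose in males. Pde1b had 7.66, 7.95 and 8.14 (lowest, median, highest) in male PPE aortae, against 7.54, 7.61, 7.80, 7.42 and 7.69 in male sham aortae, a difference of 0.32 ± 0.09 (adjusted p = 0.01214). The Pde1b call was lost without male sham replicates 4 and 5 and male PPE replicate 1 (0.25, adjusted p = 0.08375) and with the replicate number as a block (0.30, adjusted p = 0.0903). In females it was 0.25 ± 0.11 (adjusted p = 0.3059). Pde2a had 9.63, 9.89 and 10.20 in male PPE aortae, against 9.33, 9.55, 9.49, 9.95 and 9.36 in male sham aortae, and differed by 0.35 ± 0.12 (adjusted p = 0.0403). The high sham value, 9.95, was replicate 4, and without it the difference was 0.45 ± 0.11 with no overlap (adjusted p = 0.005318). The Pde2a call was lost without male sham replicates 1, 2, 3 or 5, male PPE replicates 1, 2, 3 or 7, or female sham replicate 2, with differences of 0.30 to 0.35 and adjusted p from 0.05046 to 0.1175. In females Pde2a differed by 0.29 ± 0.15 (adjusted p = 0.4018). Pde1a, the calcium-stimulated family member best known from smooth muscle, did not pass, with -0.01 ± 0.16 in males and 0.16 ± 0.21 in females.

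**Figure D5:**
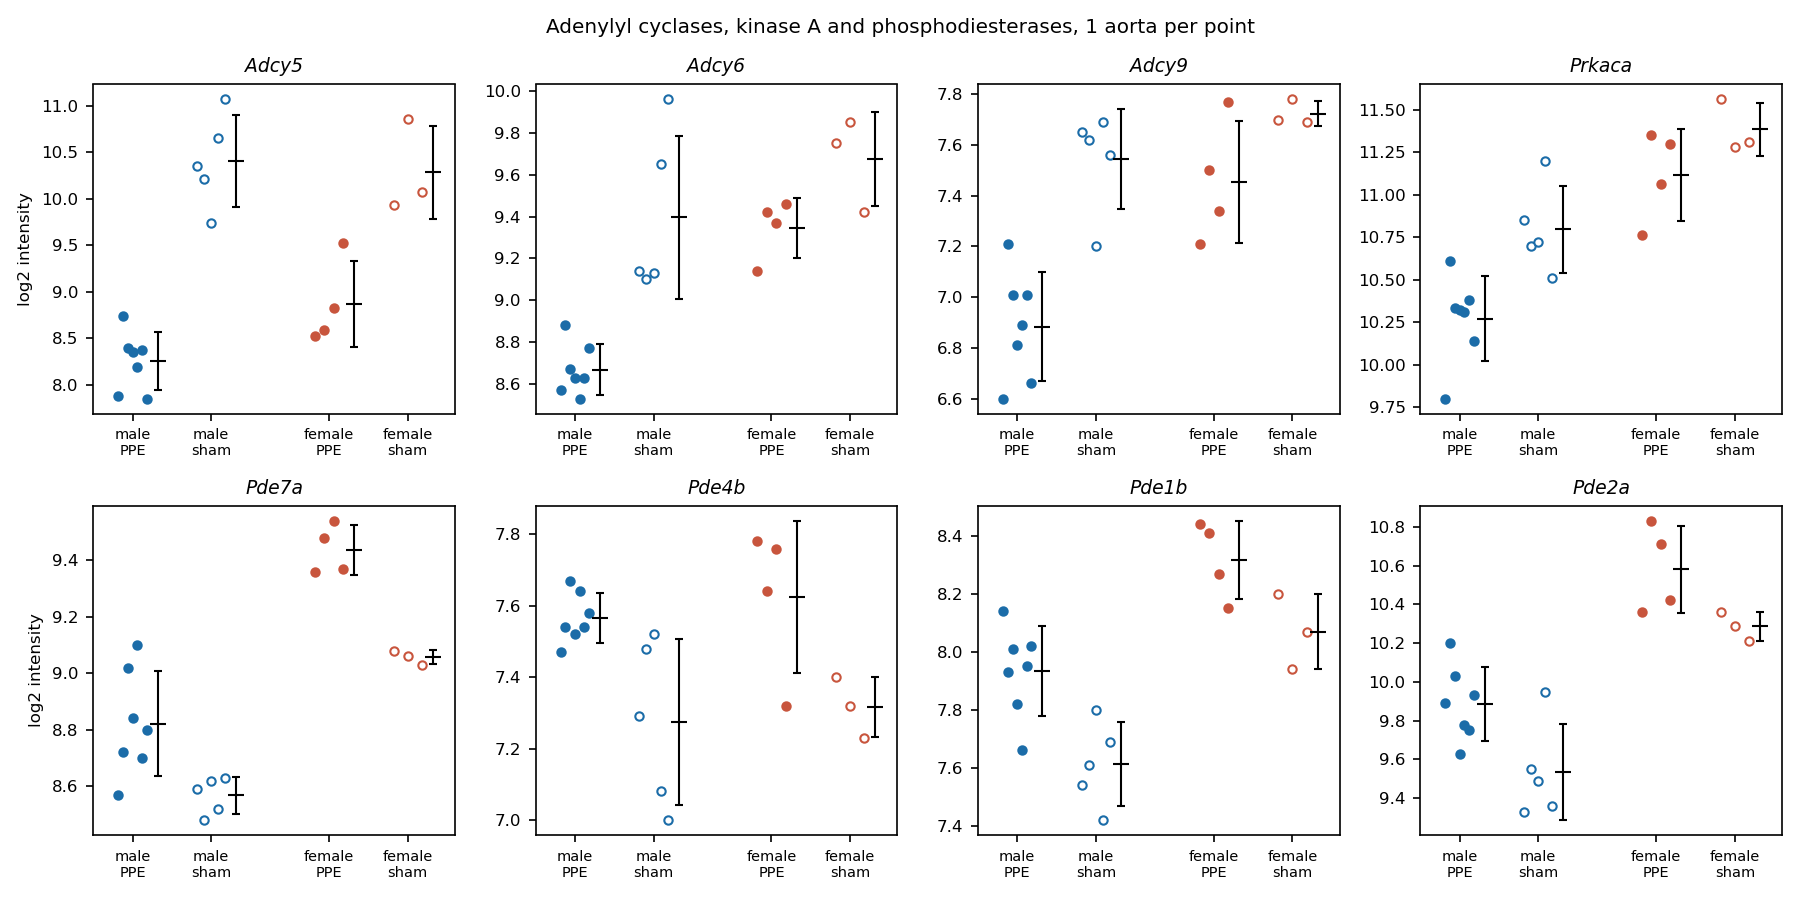
Log2 intensity of 4 genes of cAMP synthesis and action (upper row) and of the 4 phosphodiesterase genes that were higher in male PPE aortae (lower row), 1 point per aorta, with the mean and SD beside each group. In the upper row the PPE points of Adcy5 lie below the sham points in both sexes; in the lower row PPE and sham points overlap in every panel except Pde7a in females.

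A gene that did not pass did not always have a small difference. Pde3a, Prkg1 and Gucy1a2 did not pass in females, although all female PPE arrays lay below all female sham arrays. The error of Prkar2b in males was wide (-0.01 ± 0.61), so a large difference is not excluded there. The 32 genes that did not pass in males ranged from -0.28 to 0.46, and the 46 that did not pass in females from -0.76 (Pde3a) to 0.54 (Pde7b). Of the 52 genes, 18 exceeded the array median on fewer than 3 arrays, among them the sensory and intestinal guanylyl cyclases Gucy2c to Gucy2g and most genes of the photoreceptor family Pde6. Of these 18 only Adcy8 passed, in males. The 6 measured Pde6 genes ranged from -0.05 to 0.05 in males and from -0.10 to -0.02 in females. Pde9a, whose enzyme has a high affinity for cGMP, had all male PPE arrays below all male sham arrays and differed by -0.18 ± 0.06 (adjusted p = 0.05356).

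The response was compared between the sexes by its difference, male minus female. Male and female arrays differed in median intensity without overlap, so sex and array scaling cannot be told apart in this difference. None of the 52 genes passed the test of the difference (limma), where 0.542% of all genes did, and 8 passed at an unadjusted p below 0.05. The largest gaps were those of Pde3a at -0.75 (95% interval -1.40 to -0.10, adjusted p = 0.403), Adcy5 at -0.73 (-1.54 to 0.07, adjusted p = 0.5514) and Prkg1 at -0.73 (-1.28 to -0.18, adjusted p = 0.2936). These intervals leave room for responses that differ by more than 2-fold, so a like response in both sexes is not shown. With arrays weighted by their fit to the group means, 2 of the genes passed, Pde3a at -0.85 (adjusted p = 0.04908) and Prkar1b at -0.45 (adjusted p = 0.04726). The 3 arrays with the lowest weights were male sham replicate 4 (0.257), male PPE replicate 1 (0.274) and male sham replicate 5 (0.311), and without those 3 none of the 52 genes passed.

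Around these enzymes, 68 genes of the same pathways were measured in lists of receptors, G proteins, ligand supply, sensors, anchors, inhibitors, transcription factors, substrates and exporters. In males 26 passed, 9 higher and 17 lower, and in females 8 passed, 3 higher and 5 lower, each also called in males in the same direction. The shares over all genes were 19.7% in males and 4.25% in females, against which the counts of the single lists of 2 to 11 genes are also to be read. Their median log2 difference was -0.03 in males and -0.05 in females. The kinase substrates of muscle had the largest share of calls, 6 of 8 in males, with 4 lower and 2 higher. Ppp1r14a, the inhibitor of myosin phosphatase known as CPI-17, fell by 2.08 in males (adjusted p = 1.15e-05) and by 1.55 in females (adjusted p = 0.0115). Mrvi1, the protein through which kinase G holds back calcium release, fell by 1.82 in males (adjusted p = 2.14e-05) and by 1.27 in females (adjusted p = 0.0238).

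Upstream of the cyclases, 5 of 10 receptor genes passed in males. The prostaglandin E receptors Ptger2 (0.39) and Ptger4 (0.66) were higher, and the peptide receptor genes Calcrl (-0.41), Ramp1 (-0.62) and Vipr2 (-0.67) lower. Ramp1, a partner of Calcrl in the CGRP receptor, also passed in females (-0.66). Of 10 genes of nitric oxide and natriuretic peptide supply, Gch1, which makes the cofactor of nitric oxide synthase, rose by 0.90 in males and 0.96 in females. Nos2, the inducible synthase gene, rose by 0.84 in males, beside 0.52 in females (adjusted p = 0.361), and Nos3, the endothelial synthase gene, fell by 0.52 in males, beside -0.53 in females (adjusted p = 0.0686). The peptide genes Nppa, Nppb and Nppc did not pass in either sex. Of 5 G protein genes only Gnai1 passed, in males (-0.98).

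Downstream, the kinase A inhibitor genes went opposite ways in both sexes: Pkia fell by 0.66 in males and 0.66 in females, and Pkib rose by 0.46 in males and 0.37 in females. Of 11 anchoring proteins of kinase A, 4 fell and 1 rose in males, led by Akap6 (-1.14) and Akap12 (-0.95), and Akap8 rose in both sexes (0.23 in males, 0.34 in females). Of 11 other cyclic nucleotide sensors only Bves, a membrane protein that binds cAMP, passed, at -0.71 in males and -0.76 in females. In the CREB list Creb1 rose by 0.45 and Crtc1 fell by 0.35, both in males, out of 8 genes. Of 2 exporters, Abcc5 passed in males (-0.28).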

How the data were processed

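The deposited values are log2 intensities of 65956 probe sets on Clariom D (MTA 1.0) mouse arrays, made by the authors in the Transcriptome Analysis Console with the mm10 annotation, per the submitters' processing notes. How probes were summarised, background-corrected and normalized is not stated in the sources used here. Per the labels' protocols, 100 ng of TRIzol-extracted RNA of each mouse went onto its array. The values were used without further normalization, and dim genes stayed in the tests. Of the probe sets, 30604 carried 1 gene symbol, 2146 several and 33206 were not listed in the platform annotation. Symbols of 1135 were updated to RefSeq GRCm38.p6, which also gave coordinates and promoters, and the brightest probe set per gene was kept (30063 genes). Each of the 52 genes had a single probe set.

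Means of the 4 groups were fitted over the 19 arrays by lmFit and eBayes of limma 3.58.1, two-sided, under R 4.3.3, and files were read with the R package data.table, version 1.17.8. P-values were adjusted by Benjamini-Hochberg over all genes and called below 0.05. The number of arrays limits the precision. In simulated data for 30063 genes with 200 changed, the male contrast recovered 56.7% of genes changed by 0.5, 79.1% by 1 and 100% by 2 (log2), and the female contrast 40.3%, 80.6% and 95.5%. A larger share of genes passed in the data, 19.7% in males and 4.25% in females. The adjustment depends on that share, so recovery in the data may differ. No pair of arrays shared more than 2.5% identical values.

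The genes and lists were chosen with earlier results of these data known. Every one of the 52 genes could be named, with values on each array for those called, the pathway genes called in both sexes, and the markers as lists. Pathway genes called in males alone were named after their values were seen. The settings tried as alternatives were median centring, quantile normalization, keeping genes above the array median in at least 3 arrays, probe set means, a trended robust prior, array weights, arrays of 1 sex, a replicate block, an adipocyte covariate, leaving out each array, leaving out 3 arrays, and, added after the data were seen, a smooth muscle covariate.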

Additional observations from a re-analysis of the deposited data

Results flagged for a closer look

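The 20 genes called in males were examined for single arrays far from the rest of their group by Dixon's test, in 60 groups of 4 to 7 arrays, of which chance alone marks about 1 in 20. It marked 5. Adcy8 was 5.17 in male sham replicate 5, while male sham replicates 1 to 4 had 4.77 to 4.85. Adcy9 was 7.2 in male sham replicate 3, against 7.56 to 7.69. Pde4a was 7.72 in male sham replicate 5, against 7.43 to 7.51. Prkar2a was 9.13 in male PPE replicate 1, against 9.40 to 9.58 in the other male PPE arrays. Prkg1 was 9.67 in female PPE replicate 4, against 9.21 to 9.28 in the other female PPE arrays.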

How the results depend on the processing

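Of the 20 calls in males, 15 held without any 1 array, namely Adcy3, Adcy5, Adcy6, Adcy8, Adcy9, Gucy1a2, Gucy1b1, Npr1, Npr2, Pde1b, Pde3a, Pde4a, Pde5a, Prkaca and Prkg1, while in females only the Gucy1b1 call did. Leaving out 1 array at a time gave 17 to 21 called genes of the 52 in males, 1 to 6 in females and 0 to 0 in the difference between sexes, and 4949 to 6350 of all genes in males and 368 to 1614 in females. The cAMP median ranged from -0.25 to -0.10 in males and -0.08 to -0.06 in females, and the cGMP median from -0.05 to -0.01 in males and -0.13 to -0.06 in females. With array weights 15 of the 52 genes passed in females and 2 in the difference, 3955 of all genes passed in females, and the cAMP median in males was -0.22. Restricted to arrays of 1 sex, 1970 of all genes passed in females. Without the 3 arrays of lowest weight 2451 did. Whether the replicate numbers in the titles pair the mice is not known. Same-numbered PPE and sham arrays had correlations of their deviations from -0.321 to 0.195 in males and -0.223 to 0.242 in females. So few values cannot decide it. With the replicate block, 12 of the 52 genes passed in males and 2 in females, and 3525 and 639 of all genes. With the smooth muscle covariate 0 of the 52 genes passed in either sex, 4 of all genes in males and 0 in females, the cAMP median in females was -0.022, and the male differences of Adcy9 (0.22), Npr3 (0.079), Pde4b (-0.14) and Prkar2a (0.20) changed sign without passing, while the other 16 genes called in males kept their sign. The cAMP median in females was -0.14 after quantile normalization. Among genes above the filter on dim signal, which drops the near-background members by construction, the cAMP median in males was -0.24 and the cGMP median -0.74 in males and -0.50 in females. The causes of the other changes were not tested. For the 18 dim genes the weak signal over background limits what change could be seen.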
